A study of Homo sapiens with 10 samples.

Results

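The 39 genes described here are genes of blood stem and progenitor cells together with genes of the LSC17 score, a published expression score of leukaemia stem cells. They were chosen by name from a fixed list, but that list was made with earlier results of these data known. The list holds 10 transcription factors, 7 HOXA genes and partners, 6 surface proteins, 4 other stem and progenitor genes and 12 further genes of LSC17, and 14 of the 39 belong to that score. Matched by symbol, 23 of the 39 lay among the 10794 named genes of the Kasumi-1 table and 37 among the 21953 genes of the NB4 table, with 22 in both and MMRN1 in neither.

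RNA was sequenced from human leukaemia lines treated with JOA at 1 µM for 48 hours or with a control for the same time. Kasumi-1, an acute myeloid leukaemia line with the RUNX1-RUNX1T1 fusion, had 3 JOA and 3 control libraries. NB4, an acute promyelocytic leukaemia line with the PML-RARA fusion, had 2 JOA and 2 control libraries. The labels do not say what the control contained, and for treated NB4 the source field reads I13 where title and agent read JOA. No label says that replicates were grown apart, so each p-value here sets a difference against library-to-library spread that may be technical.

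Blood stem cells are held in their state by a network of transcription factors in which GATA2, ERG, LMO2, TAL1 and MYB bind many of the same enhancers. In acute myeloid leukaemia the HOXA genes, with the cofactors MEIS1 and PBX3, form a second programme that keeps cells immature, and menin and KMT2A maintain it. LSC17 genes are higher in fractions of patient cells that can transplant leukaemia, and a high score goes with poor outcome.

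The Kasumi-1 values are FPKM and the NB4 values are TPM, so levels were compared between genes within a line and never between the lines. The relative depth of the 6 Kasumi-1 libraries was 91.4 to 100% of that of control 1, and the depth of NB4 is unknown. RUNX1T1 stood at 17.1 to 20.2 FPKM in JOA and 17.9 to 19.4 FPKM in control Kasumi-1 libraries, and the receptor KIT at 164 to 310 FPKM in JOA and 185 to 322 FPKM in control libraries, while POU4F1 and CD34 were not analysed here in that line. In NB4, the granule gene MPO stood at 4679 to 5886 TPM in JOA and 7693 to 7983 TPM in control libraries, and the granule gene PRTN3 at 41.0 to 41.9 TPM in JOA and 141 to 257 TPM in control libraries. PML stood at 52.2 to 57.8 and 48.2 to 52.7 TPM, and RARA at 54.5 and at 45.3 to 49.4 TPM, in JOA and control libraries. CD34 was under 0.1 TPM in all 4 NB4 libraries, and HLA-DRA was not analysed here in NB4. In bulk RNA, fewer cells of a type and less RNA per cell cannot be told apart.

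A gene was tested in a line where its value reached 1 in at least 3 of the 6 Kasumi-1 or 2 of the 4 NB4 libraries. In Kasumi-1, 16 of the 23 passed, and HLF, HOXA7, HOXA9, ADGRG1, SPINK2, NYNRIN and DPYSL3 lay under the filter. In NB4, 22 of the 37 passed, and 12 genes were tested in both lines. The change is the difference of mean log2(value + 1), JOA minus control, which makes changes of low genes look smaller, and it was tested with limma over all genes of a table with Benjamini-Hochberg adjustment at 0.05.

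GATA2, a zinc finger factor that blood stem cells depend on, was the only 1 of the 39 genes called in Kasumi-1 or NB4 by the unpaired tests or by the Kasumi-1 paired test. It lies on chromosome 3 from 128479427 to 128493185 (GRCh38, minus strand). Its promoter sequences are shown because of that call. RefSeq (GRCh38.p14) gives 2 start sites, and each window below runs 5′ to 3′ from 250 bases before a start to 50 bases after it. The first is chr3:128493152-128493451 and the other chr3:128488481-128488780, both on the minus strand.
GATA2 distal promoter: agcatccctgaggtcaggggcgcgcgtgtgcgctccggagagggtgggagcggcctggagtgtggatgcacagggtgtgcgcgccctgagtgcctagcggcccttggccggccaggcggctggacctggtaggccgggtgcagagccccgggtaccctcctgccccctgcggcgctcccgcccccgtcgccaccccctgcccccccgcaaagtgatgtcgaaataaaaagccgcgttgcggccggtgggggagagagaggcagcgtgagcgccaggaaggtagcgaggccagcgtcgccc
GATA2 proximal promoter: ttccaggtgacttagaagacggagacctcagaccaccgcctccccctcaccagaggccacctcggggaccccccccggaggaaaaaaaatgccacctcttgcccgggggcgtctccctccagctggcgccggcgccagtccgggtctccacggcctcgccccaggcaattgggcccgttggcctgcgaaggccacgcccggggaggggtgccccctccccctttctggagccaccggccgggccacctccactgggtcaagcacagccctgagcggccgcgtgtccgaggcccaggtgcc
The windows were searched on both strands for 3 motifs, none found, so no base is in capitals. The RUNX core motif, TGTGGT, is found in 13.1% of all 35116 promoter windows of the table. The GATA motif, searched as AGATAA, is found in 10.3% of them, and the ETS core motif, CCGGAA, in 17.2%. For 34 of the 39 genes the table gives 61 windows, of which 6 hold the RUNX core, 6 the GATA motif and 8 the ETS core.

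In Kasumi-1, GATA2 had 14.0, 22.4 and 14.8 FPKM in JOA libraries 1, 2 and 3, against 12.1, 17.5 and 11.1 FPKM in control libraries 1, 2 and 3. The groups overlapped, because control 2 lay above JOA 1 and JOA 3, but each JOA library lay above the control of its own number, by 0.20, 0.34 and 0.39 on the log2 scale. The log2 change of 0.31 had an SE of 0.21 unpaired (limma adjusted p = 0.507) and 0.05 with the replicate number as a block (limma adjusted p = 0.0373). The inferred read numbers behind these values were 815 to 1695 a library, with a counting error (1 over the square root of the reads) of at most 3.50%. Leaving out any 1 pair ended the call, as did testing without the filter, and under each of these settings the paired test called 0 genes of the whole table. In NB4, GATA2 had 43.4 and 44.7 TPM in JOA libraries, inside the control range of 40.9 to 48.7 TPM, with a log2 change of -0.02 (95% interval -0.31 to 0.28).

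**Figure D1:**
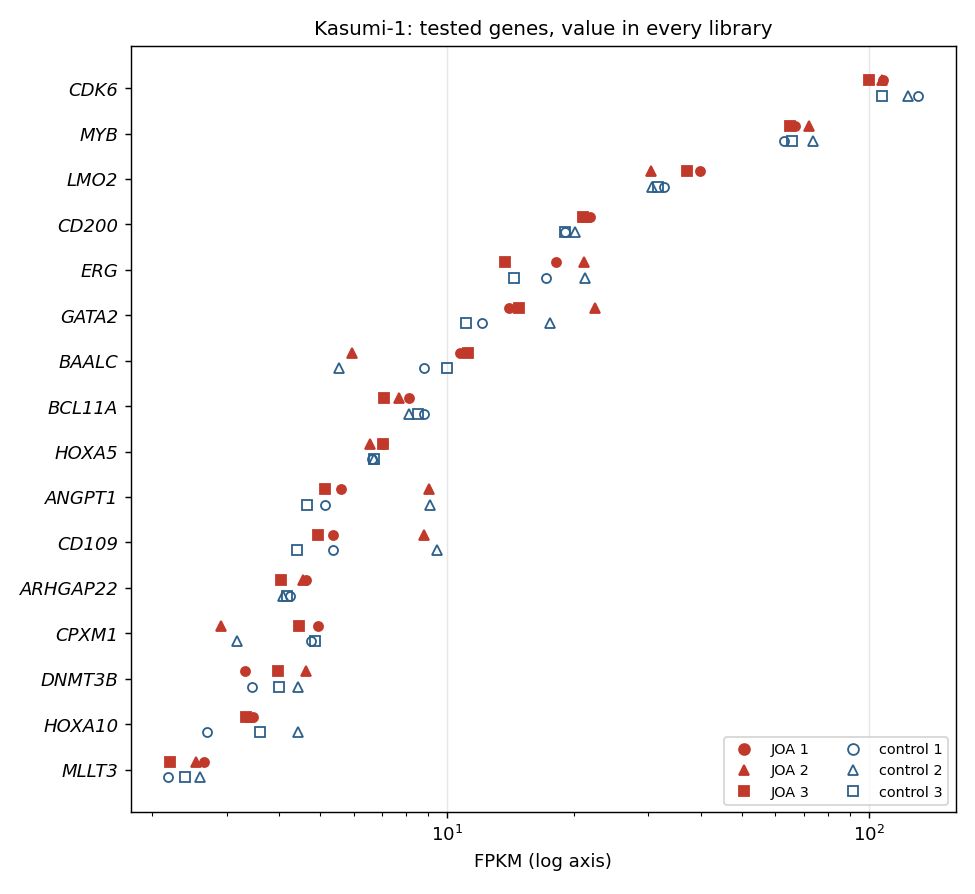
FPKM on a log axis of the 16 tested genes in each Kasumi-1 library, with JOA libraries filled and control libraries open, and 1 marker shape for each replicate number. CDK6 and MYB stand highest and MLLT3 lowest, and CD200 is the only gene whose JOA and control values do not overlap.

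Without pairs, limma called 0 of 12101 Kasumi-1 genes (0.0%, lowest adjusted p = 0.116), and 1982 (16.4%) had an unadjusted p under 0.05. The 12101 include rows not matched to a symbol, each taken as a gene, as do the other shares of all Kasumi-1 genes here. Of the 16 genes tested, 0 were called and 2 were at that unadjusted threshold, CD200 and CDK6. With the replicate number as a block, 985 genes were called (8.14%), of which 736 were higher with JOA (6.08%), and 1 of the 16, GATA2, was among them. The 985 became 0 with any 1 pair left out and 0 with no filter on low values, where 2574 to 3176 and 4265 genes had an unadjusted p under 0.05. With median-ratio scaling as well, 1118 were called, of which 455 were higher. Under the block 6 of the 16 had an unadjusted p under 0.05 (GATA2, CDK6, CD200, BAALC, LMO2 and BCL11A), against 31.2% of all genes. A total of 11 of the 16 changes were positive, with a median of 0.02, against 61.9% and 0.05 over all genes. After median-ratio scaling of the libraries 6 of the 16 were positive with a median of -0.03, against a median of -0.01 over all genes.

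Of the transcription factors, MYB stood highest in Kasumi-1. MYB, which drives proliferation of progenitors, had 66.9, 72.0 and 65.0 FPKM in JOA libraries, against 62.9, 73.7 and 65.7 FPKM in control libraries. The ranges lay over each other, and the log2 change was 0.01 (95% interval -0.16 to 0.19, and -0.05 after median-ratio scaling). LMO2, the adaptor that bridges TAL1 and GATA factors, had 39.7, 30.5 and 37.1 FPKM in JOA libraries, against 32.7, 30.6 and 31.6 FPKM in control libraries. LMO2 was higher in JOA 1 and JOA 3 and level in pair 2 (log2 change 0.16, limma adjusted p = 0.439 unpaired and 0.148 paired).

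ERG, an ETS factor of blood stem cells, averaged 17.6 ± 3.73 FPKM in JOA and 17.6 ± 3.43 FPKM in control Kasumi-1 libraries (SD, n = 3 each), a log2 change of 0.00. BCL11A, a zinc finger repressor needed for lymphoid development, averaged 7.63 ± 0.526 FPKM in JOA and 8.48 ± 0.367 FPKM in control libraries (SD, n = 3 each), and was lower in JOA in 3 of 3 pairs. Its log2 change of -0.14 was not called (limma adjusted p = 0.390 unpaired and 0.155 paired). HLF, a stem cell factor of the PAR bZIP family, ranged from 0.483 to 0.820 FPKM, under the filter, and TAL1, MECOM, SOX4 and POU4F1 were not analysed here in Kasumi-1.

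In NB4 MYB stood highest of all 22 genes tested. It had 182 and 192 TPM in JOA libraries, against 221 and 184 TPM in control libraries, and JOA 2 lay inside the control range (log2 change -0.10, limma adjusted p = 0.768). LMO2 averaged 39.1 ± 1.91 and 39.3 ± 2.25 TPM, and BCL11A 41.7 ± 5.06 and 43.4 ± 6.58 TPM, in JOA and control libraries (SD, n = 2 each). SOX4, an HMG-box factor of progenitors, averaged 8.02 ± 0.963 in JOA and 7.76 ± 1.20 TPM in control libraries. Of the 5 factors tested in NB4, 1 was positive, with a median log2 change of -0.02, against 66.2% and 0.08 over all genes. The other 5 (ERG, TAL1, MECOM, HLF and POU4F1) lay under the filter, where MECOM reached 1.37 TPM in JOA 1 alone and the others stayed at 0.0167 to 0.946 TPM.

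**Figure D2:**
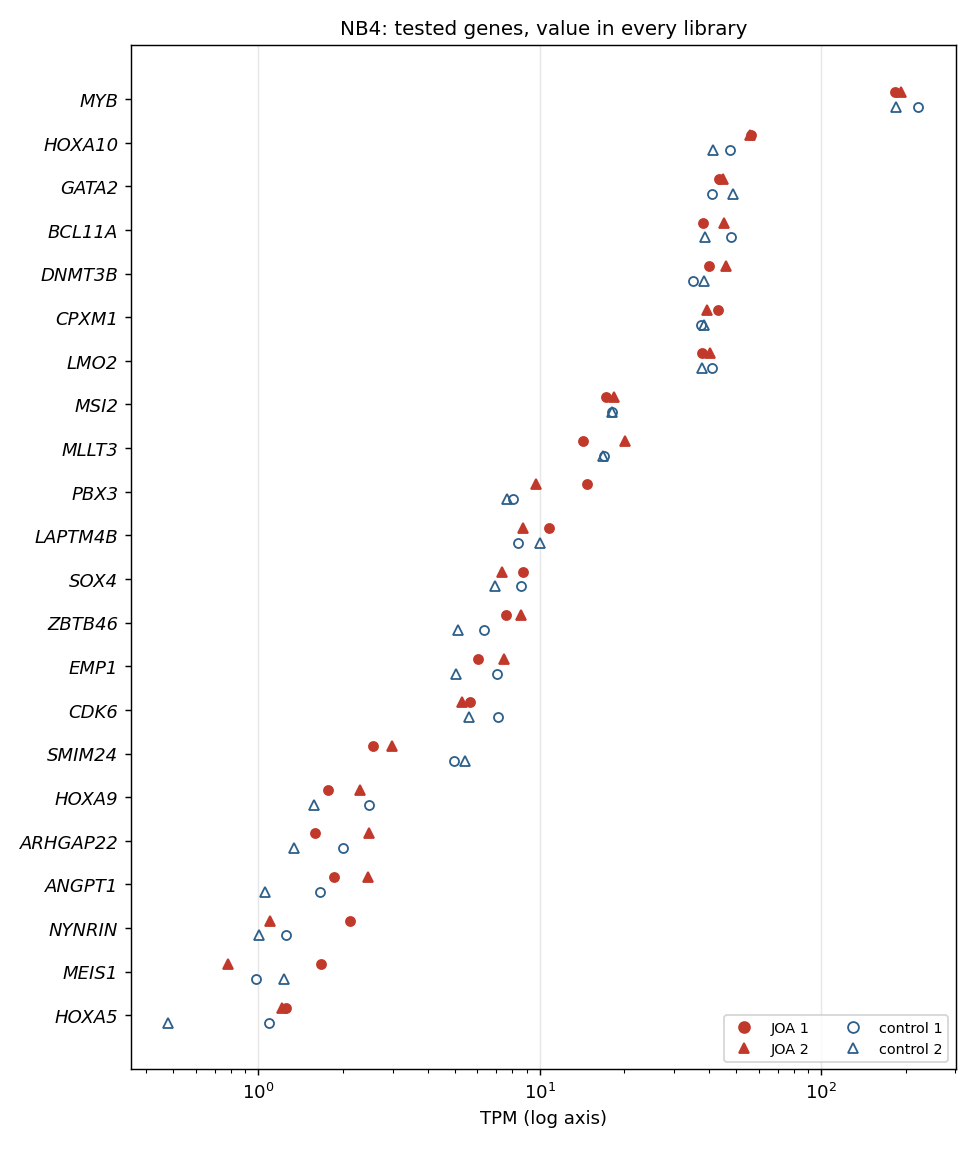
TPM on a log axis of the 22 tested genes in each NB4 library, with JOA libraries filled and control libraries open. MYB stands highest, followed by HOXA10 and GATA2, and SMIM24 is the only gene with both JOA values below both control values.

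HOXA10, a homeobox gene that blocks maturation of myeloid progenitors, had the second highest level of the genes tested in NB4. It lies on chromosome 7 from 27170591 to 27180261 (GRCh38, minus strand), and its 3′ end overlaps the start of HOXA9 (27162435 to 27175180, minus strand), so reads of the shared stretch are uncertain between them. HOXA10 had 56.2 and 55.7 TPM in JOA libraries, against 47.3 and 41.2 TPM in control libraries. Both JOA values lay above both control values, with a log2 change of 0.33 (SE 0.12, unadjusted p = 0.0237, limma adjusted p = 0.401), which did not pass. After median-ratio scaling the change was 0.24 (unadjusted p = 0.0731, limma adjusted p = 0.594).

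In Kasumi-1 HOXA10 had 3.46, 3.41 and 3.33 FPKM in JOA libraries, against 2.70, 4.44 and 3.59 FPKM in control libraries. The JOA values fell inside the control range (log2 change -0.04, 95% interval -0.37 to 0.29). The difference between the lines, Kasumi-1 minus NB4, was -0.37 (SE 0.20, limma adjusted p = 0.489, unadjusted p = 0.0811). Without pairs that was the lowest unadjusted p of the 17 genes tested for it. The added 1 shrinks a change more at the low FPKM of HOXA10 in Kasumi-1 than at 41.2 to 56.2 TPM in NB4. Its part in this difference was not tested.

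PBX3, a TALE cofactor that binds DNA with HOXA proteins, was tested in NB4 alone. It lies on chromosome 9 from 125747345 to 125967377 (GRCh38, plus strand). PBX3 had 14.8 and 9.67 TPM in JOA libraries, against 8.03 and 7.64 TPM in control libraries, so that both JOA values lay above both controls and JOA 1 stood furthest apart. The log2 change was 0.55 (SE 0.22, unadjusted p = 0.0343, limma adjusted p = 0.436) and did not pass. Over protein-coding transcripts alone it was 0.24 (limma adjusted p = 0.620).

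Of the remaining HOXA group, HOXA5 averaged 1.23 ± 0.0270 in JOA and 0.786 ± 0.433 TPM in control NB4 libraries, with control 2 lowest at 0.480 TPM (limma adjusted p = 0.683). HOXA9 averaged 2.03 ± 0.366 and 2.03 ± 0.626 TPM, MEIS1 1.22 ± 0.624 and 1.11 ± 0.182 TPM, and MLLT3, an elongation complex subunit and fusion partner of KMT2A, 17.2 ± 4.20 and 16.9 ± 0.0283 TPM, in JOA and control libraries (SD, n = 2 each). All 6 of the group tested in NB4 had positive changes, with a median of 0.19, against 66.2% and 0.08 over all genes. HOXA9, MEIS1 and MLLT3 turned negative after median-ratio scaling (-0.05, 0.00 and -0.09). HOXA7 lay under the filter at 0.776 to 1.5 TPM. In Kasumi-1, HOXA5 averaged 6.89 ± 0.280 in JOA and 6.68 ± 0.0332 FPKM in control libraries (SD, n = 3 each) and MLLT3 2.47 ± 0.233 and 2.39 ± 0.202 FPKM, while HOXA9 stood at 0.439 to 0.662 FPKM.

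Other genes of this programme were not called. Of the other HOX genes and TALE partners on the list, 3 were tested in Kasumi-1 and 11 in NB4, and 0 were called or reached an unadjusted p under 0.05 without pairs in either line (medians 0.09 and 0.09). Of 11 chromatin regulators of HOXA and MEIS1, including KMT2A, MEN1 and DOT1L, 0 of 9 tested in Kasumi-1 and 0 of 11 tested in NB4 were called (medians 0.01 and 0.00). The Polycomb gene BMI1 had 23.5 and 24.1 TPM in JOA libraries, against 18.8 and 16.4 TPM in control NB4 libraries, and it was higher at an unadjusted p under 0.05, as was PSIP1 (2 of 11, against 10.6% of all NB4 genes). In Kasumi-1, AFF1 and ELL were higher at that threshold (2 of 9, against 16.4% of all genes).

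**Figure D3:**
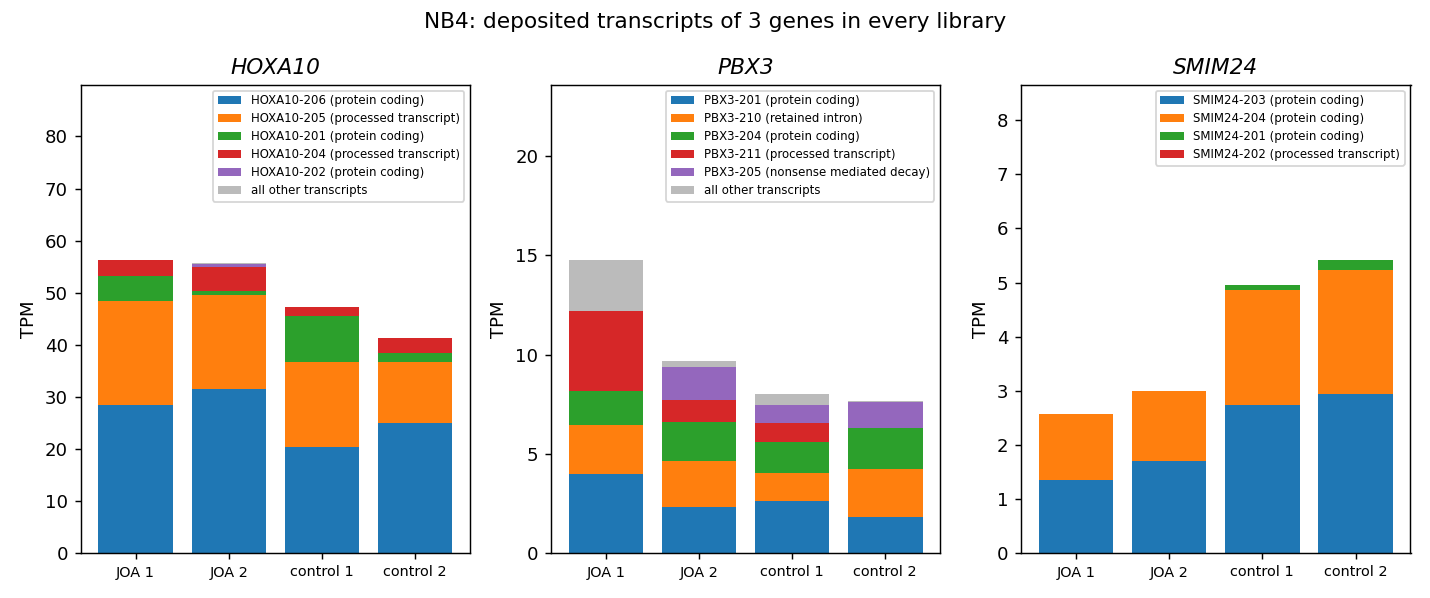
TPM of the deposited transcripts of HOXA10, PBX3 and SMIM24 stacked in each NB4 library, JOA libraries left of control libraries. The SMIM24 stack is lower with JOA in both main transcripts, and the PBX3 stack is tallest in JOA 1, where PBX3-211 and the remaining transcripts stand above the other libraries.

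The NB4 table gives transcripts, so the genes could be split further. The 39 genes have 228 transcripts in it, of which 72 from 20 genes passed the filter. Over all 51643 transcripts tested limma called 0 (0.0%), while 3469 (6.72%) had an unadjusted p below 0.05. Of the 72, 0 were called (lowest adjusted p = 0.733) and 6 were at that threshold, MYB-224 and MYB-228 higher and LMO2-202, MSI2-213, MYB-221 and MYB-235 lower with JOA. Each carried at most 16.2% of its gene's TPM in either group, and the main MYB transcript, MYB-205, averaged 99.9 TPM in JOA and 114 TPM in control libraries.

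For HOXA10 the coding transcript HOXA10-206 had 28.4 and 31.5 TPM in JOA libraries, against 20.3 and 25.0 TPM in control libraries. The noncoding HOXA10-205 had 19.9 and 18.0 TPM in JOA libraries, against 16.4 and 11.5 TPM in control libraries, so both lay apart in the same direction, while the coding HOXA10-201 was uneven in both groups. For PBX3 the noncoding PBX3-211 had 4.06 and 1.09 TPM in JOA libraries, against 0.950 and 0 TPM in control libraries. PBX3-202, a transcript annotated for nonsense-mediated decay, had 2.36 TPM in JOA 1 and 0.109 TPM or less in the other libraries. The coding PBX3-204 averaged 1.84 TPM in JOA and 1.80 TPM in control libraries, and the coding PBX3-201 averaged 3.15 and 2.22 TPM, so most of the PBX3 difference lay outside the coding transcripts and in JOA 1.

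Among the surface proteins, CD200, an immune inhibitory ligand found on leukaemia stem cells, was measured in Kasumi-1 alone. It lies on chromosome 3 from 112332347 to 112362812 (GRCh38, plus strand). CD200 had 21.8, 21.4 and 21.0 FPKM in JOA libraries, against 19.1, 20.1 and 19.0 FPKM in control libraries. Every JOA value lay above every control value, with a log2 change of 0.14 (SE 0.05, unadjusted p = 0.0312, limma adjusted p = 0.257), which did not pass, nor did it with pairs (limma adjusted p = 0.0948). It was the only 1 of the 16 whose groups did not overlap, against 23.1% of all genes overall and 16.0% higher with JOA, and after median-ratio scaling its change was 0.07 (limma adjusted p = 0.534).

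CD109, a GPI-anchored co-receptor, averaged 6.38 ± 2.14 in JOA and 6.41 ± 2.69 FPKM in control Kasumi-1 libraries (SD, n = 3 each), and in NB4 stayed at 0.0169 to 0.0275 TPM. CD34, the sialomucin used to sort stem cells, stood at 0.0363 and 0.0816 TPM in JOA and 0.0670 and 0.0893 TPM in control NB4 libraries. PROM1 (CD133) was listed at 0 in all 4 NB4 libraries, and CD96, an immune receptor, stayed at 0.0382 to 0.0760 TPM. ADGRG1, the adhesion receptor GPR56, had 1.80 and 0.674 TPM in JOA and 0.278 and 0.705 TPM in control NB4 libraries, with JOA 1 alone high, and was at 0 to 0.0139 FPKM in Kasumi-1.

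CDK6, a kinase of the G1 phase and an LSC17 gene, had the highest level of the 16 genes tested in Kasumi-1. It lies on chromosome 7 from 92604921 to 92836594 (GRCh38, minus strand). CDK6 had 108, 108 and 100.1 FPKM in JOA libraries, against 131, 124 and 108 FPKM in control libraries. Control 3 lay at the level of JOA 1 and JOA 2, so the groups met, and each JOA library lay below the control of its number, with log2 differences of -0.27, -0.20 and -0.10. The log2 change of -0.19 had an SE of 0.08 unpaired (unadjusted p = 0.0493, limma adjusted p = 0.304) and 0.05 paired (limma adjusted p = 0.0596). It did not pass, but with pairs and median-ratio scaling it was -0.26 and was called (limma adjusted p = 0.0361). In NB4 CDK6 was also lower on average, at 5.47 ± 0.273 in JOA and 6.35 ± 1.08 TPM in control libraries (SD, n = 2 each), with a log2 change of -0.18 (limma adjusted p = 0.767) and overlapping groups.

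SMIM24, a small membrane protein of LSC17, had the largest change in size of the 22 genes tested in NB4. It lies on chromosome 19 from 3473986 to 3480542 (GRCh38, minus strand) and was not analysed here in Kasumi-1. SMIM24 had 2.57 and 2.99 TPM in JOA libraries, against 4.95 and 5.41 TPM in control libraries. Both JOA values lay below both control values, with a log2 change of -0.71 (SE 0.20, unadjusted p = 0.0091, limma adjusted p = 0.316), which did not pass. The transcript SMIM24-203 averaged 1.52 TPM in JOA and 2.83 TPM in control libraries, and SMIM24-204 1.26 TPM in JOA and 2.21 TPM in control libraries. Over protein-coding transcripts the limma adjusted p was 0.176.

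The other LSC17 genes tested in NB4 changed less in size than SMIM24, and ZBTB46 changed most among them. ZBTB46, a zinc finger repressor known from dendritic cells, had 7.61 and 8.56 TPM in JOA libraries, against 6.36 and 5.12 TPM in control NB4 libraries (log2 change 0.44, limma adjusted p = 0.477). DNMT3B, a de novo DNA methyltransferase, averaged 42.9 ± 4.26 in JOA and 36.6 ± 2.38 TPM in control NB4 libraries, and CPXM1, a secreted carboxypeptidase-like protein, 41.2 ± 2.42 in JOA and 37.8 ± 0.607 TPM in control libraries (SD, n = 2 each). In Kasumi-1 DNMT3B averaged 3.98 ± 0.662 FPKM in JOA and 3.95 ± 0.497 FPKM in control libraries, and CPXM1 4.10 ± 1.06 FPKM in JOA and 4.27 ± 0.943 FPKM in control libraries (SD, n = 3 each). LAPTM4B, a lysosomal membrane protein, EMP1, an epithelial membrane protein, NYNRIN and ARHGAP22, a GTPase-activating protein, had overlapping groups in NB4, with log2 changes of 0.08, 0.14, 0.27 and 0.18. ARHGAP22 rests in Kasumi-1 on a noncoding record, at 4.04 to 4.62 FPKM. DPYSL3, a cytoskeletal regulator, and AKR1C3, an aldo-keto reductase, stayed at 0 to 0.533 TPM in NB4.

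Over the score, 9 of the 12 further LSC17 genes were tested in NB4, and 7 were positive (median 0.14, against 66.2% and 0.08 over all genes). In Kasumi-1, 4 were tested and 2 were positive (median -0.02, against 61.9% and 0.05 over all genes). With the values of those in each table summed, the 12 stood at 119 to 122 TPM in JOA and at 110 TPM in both control NB4 libraries. DNMT3B and CPXM1 make up most of that NB4 sum. It was not scaled, and the median-ratio size factors were 1.03 and 1.04 in JOA and 0.999 and 0.936 in control NB4 libraries. The separation of the NB4 sums therefore depends on scaling. In Kasumi-1 the sum stood at 113 to 121 FPKM in JOA and 121 to 143 FPKM in control libraries, where CDK6 makes up most of it. The score was not computed, because genes of it were not analysed here in each line. SOCS2, an LSC17 gene outside the 39, had 31.2 and 19.2 TPM in JOA and 25.2 and 16.8 TPM in control NB4 libraries.

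Of the 4 other stem and progenitor genes, ANGPT1, a ligand of the stem cell receptor TEK, averaged 2.16 ± 0.410 in JOA and 1.36 ± 0.429 TPM in control NB4 libraries (SD, n = 2 each). Its groups did not overlap and its log2 change of 0.43 was not called (limma adjusted p = 0.593). MSI2, an RNA-binding protein of stem cells, averaged 17.8 ± 0.825 and 18.1 ± 0.0487 TPM in JOA and control libraries. BAALC, a gene whose high level goes with poor outcome in acute myeloid leukaemia, stood at 0.366 to 0.376 TPM in JOA and 0.516 to 0.744 TPM in control NB4 libraries, under the filter. SPINK2, a protease inhibitor of stem cells, was at 0.622 and 0.694 TPM in JOA and at 0 and 0.411 TPM in control NB4 libraries, and at 0 to 0.444 FPKM in Kasumi-1.

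**Figure D4:**
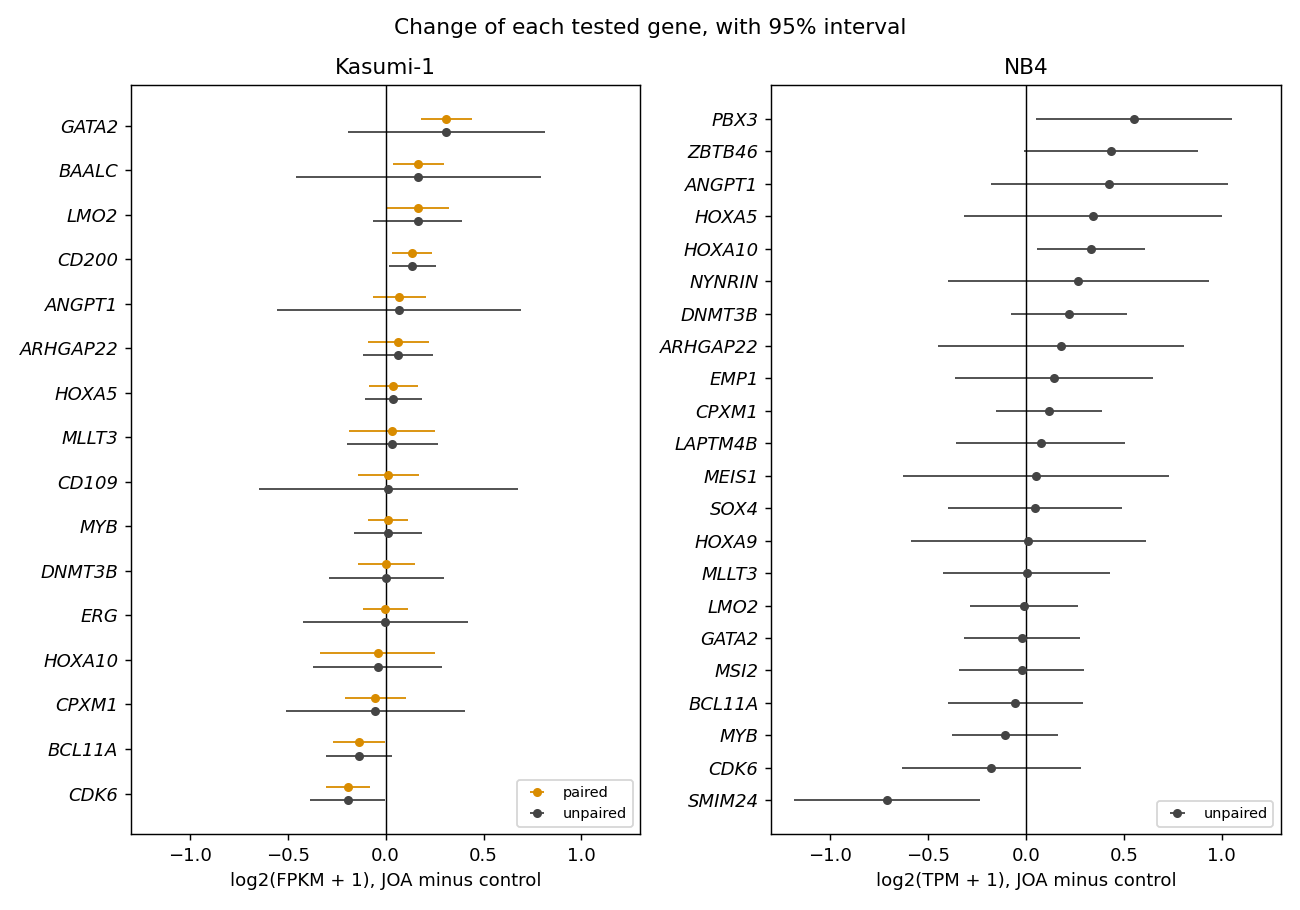
Change of each tested gene as the difference of mean log2(value + 1), JOA minus control, with its 95% interval from limma. In Kasumi-1 the intervals with pairs lie within those without, and in NB4 the interval of SMIM24 lies below 0 and those of PBX3 and HOXA10 above it.

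In NB4 limma called 1 of 12940 genes (0.00773%), and 1375 (10.6%) had an unadjusted p under 0.05. Of the 22 genes tested 0 were called and 3 were at that threshold, SMIM24, HOXA10 and PBX3. A total of 15 of the 22 changes were positive, with a median of 0.06, against 66.2% and 0.08 over all genes, and after median-ratio scaling 10 were positive with a median of -0.01. The groups did not overlap for 8 of the 22, against 43.5% of all genes. ANGPT1, CPXM1, DNMT3B, HOXA5, HOXA10, PBX3 and ZBTB46 were higher in both JOA libraries (7 of 22, against 32.5% of all genes), and SMIM24 was lower. With variance shared over both lines 158 of 7288 genes were called (2.17%) and 0 of the 17 genes tested there.

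A p that misses the threshold does not show that a gene stayed level, and the intervals give the sizes left possible. The limit used was a 1.5-fold change of value + 1, which for a low gene allows a larger fold change of the value itself. In Kasumi-1 the 95% interval lay within that limit for 12 of 16 genes without pairs and for 16 of 16 with pairs. The 4 wider ones without pairs were ANGPT1, BAALC, CD109 and GATA2. In NB4 the interval lay within that limit for 10 of 22 genes, among them GATA2, LMO2, MYB, BCL11A and MSI2. The difference between the lines, which sets changes in log2(FPKM + 1) against changes in log2(TPM + 1), was called for 14 of 7288 genes (0.192%). Of the 7288, 844 (11.6%) had an unadjusted p below 0.05. Of the 17 genes tested, 0 were called or reached that unadjusted threshold. With the replicate numbers as a block 0 were called and 2 reached it, against 17.9% of all genes. The 17 had to pass the filter in at least 1 line, and 12 passed it in both.

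In Kasumi-1, 6 of the 16 genes differed between replicate numbers, in both groups alike. The number itself was tested in the blocked fit with limma, a test added after the values were seen. Those 6 were called, against 703 of all genes (5.81%), and 9 of the 16 had an unadjusted p under 0.05, against 28.8%.

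BAALC had 10.7, 5.96 and 11.2 FPKM in JOA libraries 1, 2 and 3, against 8.82, 5.53 and 9.99 FPKM in control libraries 1, 2 and 3 (limma adjusted p = 0.0136 for the number). CPXM1 was likewise low in both number 2 libraries, at 2.91 FPKM in JOA and 3.18 FPKM in control, against 4.46 to 4.93 and 4.76 to 4.86 FPKM in the others (limma adjusted p = 0.0353). ANGPT1 was high in them, with 5.60, 9.04 and 5.14 FPKM in JOA libraries, against 5.14, 9.12 and 4.64 FPKM in control libraries (limma adjusted p = 0.0140). CD109 had 5.37, 8.83 and 4.94 FPKM in JOA libraries, against 5.37, 9.47 and 4.41 FPKM in control libraries (limma adjusted p = 0.0175). ERG had 18.1, 21.1 and 13.7 FPKM in JOA libraries, against 17.2, 21.2 and 14.4 FPKM in control libraries (limma adjusted p = 0.0223). GATA2 was the sixth (limma adjusted p = 0.0207), and its mean over both groups was 20.0 FPKM for number 2 and 13.1 and 12.9 FPKM for numbers 1 and 3.

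So in both groups ANGPT1, CD109, GATA2 and ERG were highest and BAALC and CPXM1 lowest in number 2. Reads ran from 118 a library for CPXM1 to 2820 for ERG, so counting error was at most 9.21% for these genes. The relative depth of the number 2 libraries was 93.7% in JOA and 96.7% in control, inside the range of the others. Without number 2 the count of 6 was 0, while it was 5 without number 1 and 4 without number 3. Without number 2, 0 genes of the whole table were called for the number, and 2644 had an unadjusted p under 0.05. With no filter on low values 0 genes of the table were called for it, and 4303 had an unadjusted p under 0.05.

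The replicate number also set apart other genes of blood stem cells. Of 30 other regulators and markers on a second list, 14 were tested in Kasumi-1 and 17 in NB4, and limma called 0 between JOA and control in either line (medians 0.09 and 0.24). Without pairs 0 of them in Kasumi-1 and 1 in NB4, the integrin ITGA6, had an unadjusted p under 0.05. In Kasumi-1, 8 of the 14 were called for the number, against 5.81% of all genes, which were CD44, FHL1, FLT3, IGF2BP2, IKZF2, ITGA6, KIT and LDB1. KIT had 213, 310 and 164 FPKM in JOA libraries, against 225, 322 and 185 FPKM in control libraries. IKZF2, a transcription factor of the Ikaros family, had 1.65, 6.31 and 1.88 FPKM in JOA libraries, against 1.48, 5.22 and 1.58 FPKM in control libraries, and the receptor FLT3 was also highest in number 2. LYZ, a lysozyme gene of maturing myeloid cells, was the only 1 of 4 maturation markers tested in Kasumi-1 that was called for the number. LYZ ran the other way, with 12.0, 4.31 and 14.5 FPKM in JOA libraries, against 11.7, 4.08 and 12.9 FPKM in control libraries. Directions of CD44, FHL1, IGF2BP2, ITGA6 and LDB1, and of the other maturation markers, were not set out here. What sets number 2 apart was not tested.

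**Figure D5:**
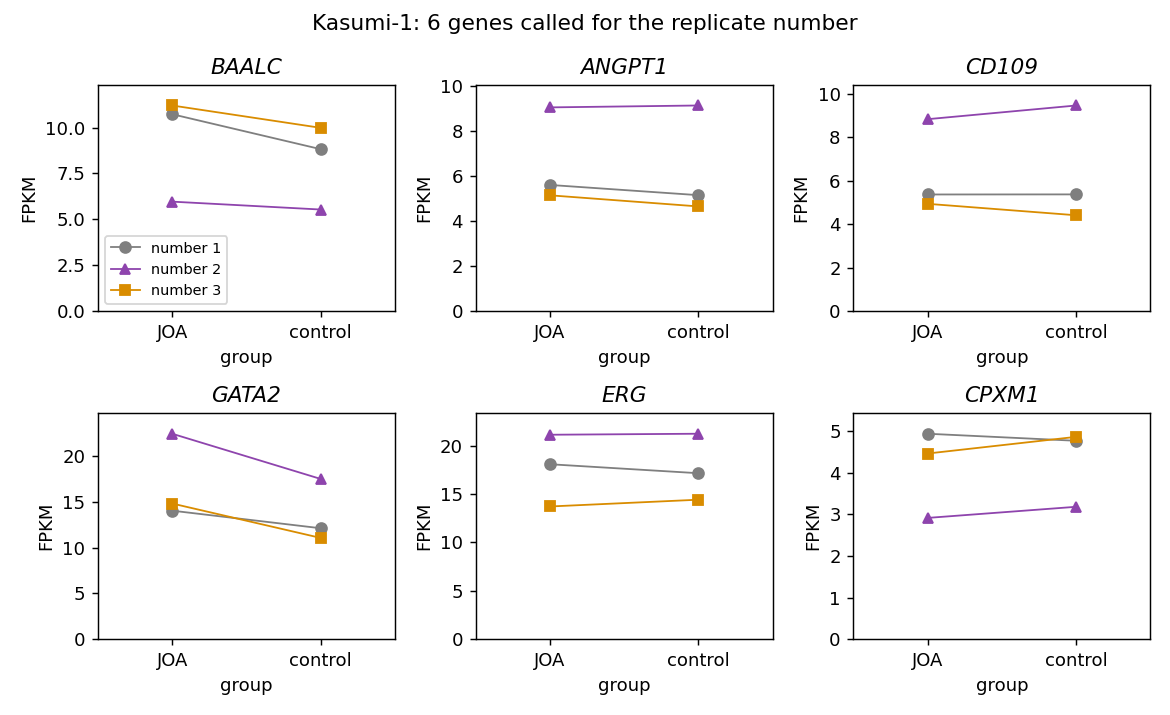
FPKM in Kasumi-1 of the 6 genes called for the replicate number, JOA left and control right, with a line joining libraries of the same number. In both groups number 2 is the highest for ANGPT1, CD109, GATA2 and ERG and the lowest for BAALC and CPXM1, but for ERG in JOA number 3 lies further from number 1 than number 2 does.

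Genes of neighbouring states were set beside these. Of 13 maturation markers 11 were tested in NB4, 0 were called within the line, and 6 were at an unadjusted p under 0.05, all higher with JOA (CD33, CSF3R, FCN1, ITGAM, ITGAX and S100A9, list median 0.55), against 10.6% of all genes in either direction. The integrin ITGAM had 20.2 and 23.2 TPM in JOA libraries, against 12.7 and 15.6 TPM in control libraries, and was called with variance shared over both lines (limma adjusted p = 0.0470), as were 2.17% of all genes. In Kasumi-1, 4 were tested and 0 were called or reached that threshold without pairs. Markers of other cell types summed to 86.6 to 104 TPM in JOA and 66.7 to 67.0 TPM in control NB4 libraries, with 5 of 13 past the filter and CD3D, KRT8 and KRT18 higher at an unadjusted p under 0.05 (3 of 5, against 10.6% of all genes). PPBP was at 0 in all 4 NB4 libraries, and HBB, HBG1, HBG2, CD3E, COL1A1 and COL1A2 stayed at or near 0. In Kasumi-1, EPCAM was the only marker of the 3 in the table past the filter, and the list summed to 33.1 to 43.4 FPKM in JOA and 35.5 to 44.7 FPKM in control libraries. Their part in the values of the 39 genes was not tested.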

How the data were processed

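Members and lists were chosen with earlier results of these data known. Per the labels' protocols, total RNA went into a stranded mRNA kit. Trimmomatic, Cufflinks, HISAT2, HTSeq and hg38 appear in the submitters' processing notes without versions or roles. The authors deposited FPKM for Kasumi-1 in 29053 rows named by sequence record, of which 37.5%, holding 45.8% of the FPKM, were matched to a symbol. The NB4 table is named for FPKM, but its deposited columns sum to 999679 to 999758, so they were taken as TPM, against the design, which had assumed FPKM. Of its 121005 transcripts, 93.9% had an entry in GENCODE 29 and were added up per gene, and the rest hold 3.04% of the TPM. In Kasumi-1 all 9311 rows with low values (under 1 FPKM) gave whole reads within 0.01 of a read, from which relative depth and the reads of 22 of 23 genes were inferred as the smallest whole numbers, so a common factor is possible.

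Each table was fitted with limma 3.58.1 (R 4.3.3, tables read with Python 3.11.15) on log2(value + 1), with trended variance and no block, 2-sided, over genes reaching 1 in at least 3 Kasumi-1 or 2 NB4 libraries. Intervals are 95% intervals of that fit. The difference between the lines came from 1 fit over all 10 libraries. That fit joined log2(FPKM + 1) of Kasumi-1 and log2(TPM + 1) of NB4, so the added 1 does not weigh alike in both lines. The fits were also run on values simulated from the same model with independent noise, which cannot show how they behave on these libraries. Same-numbered Kasumi-1 libraries deviated together (correlations 0.330, 0.500 and 0.424, all other pairs below -0.06), and were therefore treated as pairs, with the blocked result given where it changes a call. Deviations from a group mean sum to 0 within the group, so the negative values of the other pairs are partly forced and add no separate support. That pairing comes from the values and not from a label, and the blocked calls rest on the same values. Values in every library are given for genes at an unadjusted p under 0.05 in the unpaired fit or called in the blocked one, and for the 3 highest genes of each line. Values of the genes called for the replicate number, and of some others, were added after they were seen.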

Additional observations from a re-analysis of the deposited data

How the results depend on the processing

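The counts of members called were 0 in Kasumi-1, in NB4 and for the difference between the lines, and stayed at 0 under each pseudocount, filter, scaling, row choice and left-out library tried, while the Kasumi-1 replicate block gave 1 (GATA2). Alternatives added after the data were seen gave 2 with the replicate block and median-ratio scaling (GATA2 and CDK6), 1 with the block and a pseudocount of 0.1, and 0 with the block and no filter or with any 1 pair left out. The 6 members called for the replicate number were 0 with no filter and 0 to 5 with 1 pair left out, and 6 with a pseudocount of 0.1 or median-ratio scaling. MYB in Kasumi-1 had a change of 0.01, and -0.054 with median-ratio scaling, with or without the block, and ran from -0.035 to 0.078 with 1 library or pair left out (-0.024 with the replicate block without replicate 1). In NB4, with 1 library left out, MYB ran from -0.24 to 0.028 and GATA2 from -0.14 to 0.10. In Kasumi-1 GATA2 ran from 0.11 to 0.50 with 1 library or pair left out (limma adjusted p from 0.109 to 0.807). In NB4 the PBX3 change ran from 0.24 to 0.83, the low end from protein-coding transcripts alone. Over all genes, Kasumi-1 calls were 0, against 985 with the block (0 with the block and any 1 pair left out or no filter), 4 with variance shared over both lines and 1 without JOA replicate 2. NB4 calls were 1, against 164 with the block, 158 with shared variance, 13 over protein-coding transcripts and 0 with a pseudocount of 0.1, no filter, median-ratio scaling or any library left out. NB4 numbers were not taken as pairs, since same-numbered libraries correlated at 0.0676, and the block called 0 of the 22 members. The difference between the lines was called for 14 genes, against 2 with a pseudocount of 0.1, 37 with no filter, 37 with the block and 2 to 113 with 1 library left out. SMIM24 and PBX3 have no value with shared variance, being in the NB4 table only. The cause of these shifts was not tested. The depth of NB4 is unknown, and 2 libraries a group leave wide intervals.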
